A study of Mus musculus with 2 samples.

Results

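The Dlk1-Meg3 imprinted domain of mouse chromosome 12 was described here through 5 genes, the protein-coding genes Dlk1 and Rtl1 and the noncoding RNA genes Meg3, Rian and Mirg. They were taken by symbol and are 5 of the 55536 annotated genes of the tables. All 5 were found in both libraries by both of the deposited quantifications. The data are total RNA-seq of whole gastrocnemius, a calf muscle, from male B6CASTF1/J mice aged 4 days. This strain name denotes the first-generation hybrid of C57BL/6J and CAST/EiJ mice. There was 1 group of 2 libraries, each from 300 ng of RNA, with no treatment, no second genotype and no second age. The labels number the animals 03 (replicate 1) and 04 (replicate 2) and give separate tissue samples, yet list the same donor entry for both libraries. With 2 libraries of 1 group no test between groups was possible, and an exact sign-flip permutation test over 2 values cannot go below p = 0.5, so every value below is a description with its spread.

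The libraries held 35281187 and 32301531 expected counts in annotated genes, so counting error was small for the 5 genes and the number of libraries limits the precision. The summed level of 4 muscle fibre markers (Acta1, Mylpf, Ckm, Ttn) was 32187 and 30377 TPM (transcript level per length, scaled to a fixed total per library). Markers of fibroblasts, endothelium and macrophages were detected at similar summed levels in both libraries. Most of the fibroblast sum was Col1a1, and Lum alone had 37.85 and 54.28 TPM, while Dpt and Pdgfra differed less. Replicate 2 stood apart in markers of other cell types. The 4 keratinocyte markers summed to 3.88 TPM in replicate 1 and 655 TPM in replicate 2, the 4 adipocyte markers to 30.9 and 82.7 TPM, and the 4 Schwann cell markers to 319 and 724 TPM. None of these 12 markers was at exactly 0 in either library, but the 3 counts of Krt14 in replicate 1 cannot be told from 0. In bulk tissue, fewer cells of a type and less RNA per cell cannot be told apart.

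An imprinted gene is expressed mainly from the chromosome inherited from 1 of the parents. In this domain Dlk1 and Rtl1 are known to be expressed from the paternal chromosome, and Meg3, Rian and Mirg from the maternal one, under control of a methylated region between Dlk1 and Meg3. The noncoding genes are hosts of many small RNAs: microRNAs (miRNAs), which pair with messenger RNAs mostly through bases 2 to 8 (the seed), and C/D box small nucleolar RNAs (snoRNAs), which guide RNA methylation. In muscle the domain is known for the callipyge phenotype of sheep, in which high DLK1 and RTL1 accompany enlarged hindquarter muscles. Expression by parental chromosome was not analysed here.

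The clearest sequence feature of the domain is that maternal miRNA genes lie on the strand opposite to the paternal Rtl1 message. RefSeq (GRCm38.p6) gave 112 mature miRNAs from 60 miRNA genes of the domain, matching 60 of the 66 miRNA genes annotated there. Of the 112, 11 mature miRNAs from 6 genes had a full reverse complement in the annotated Rtl1 transcript of 6358 nt (GENCODE M21). All 11 sites lay in its coding part, bases 148 to 5379, at the same genomic position as the miRNA on the other strand. The pairs below show 1 or both arms of each of the 6 genes, in the order of their position, each miRNA with its seed in capitals and the Rtl1 site with the bases complementary to the seed in capitals. Both are written 5′ to 3′, the miRNA from the plus strand and the Rtl1 site from the minus strand.
mmu-miR-431-5p (chr12:109590459-109590479, Rtl1 bases 5072 to 5092): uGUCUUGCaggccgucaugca
Rtl1 site of miR-431-5p: tgcatgacggcctGCAAGACa
mmu-miR-433-5p (chr12:109591729-109591750, Rtl1 bases 3801 to 3822): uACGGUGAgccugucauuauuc
Rtl1 site of miR-433-5p: gaataatgacaggcTCACCGTa
mmu-miR-433-3p (chr12:109591781-109591802, Rtl1 bases 3749 to 3770): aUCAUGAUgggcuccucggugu
Rtl1 site of miR-433-3p: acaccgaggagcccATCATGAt
mmu-miR-127-3p (chr12:109592888-109592909, Rtl1 bases 2642 to 2663): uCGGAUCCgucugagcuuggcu
Rtl1 site of miR-127-3p: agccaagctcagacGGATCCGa
mmu-miR-434-3p (chr12:109594565-109594586, Rtl1 bases 965 to 986): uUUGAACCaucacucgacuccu
Rtl1 site of miR-434-3p: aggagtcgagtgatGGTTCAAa
mmu-miR-432 (chr12:109595006-109595028, Rtl1 bases 523 to 545): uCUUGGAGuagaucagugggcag
Rtl1 site of miR-432: ctgcccactgatctaCTCCAAGa
mmu-miR-136-5p (chr12:109595331-109595352, Rtl1 bases 199 to 220): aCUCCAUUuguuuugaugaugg
Rtl1 site of miR-136-5p: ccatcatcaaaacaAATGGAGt

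The 112 mature miRNA entries carried 102 different seeds. Only 10 seeds were shared, each by 2 entries. For 1 of them both entries are the same mature miRNA, miR-3070-5p, from the precursors Mir3070a and Mir3070b. The pairs shown here include 2 of the few miRNA precursors that received counts, Mir1193 and Mir1197, whose 5p arms share a seed with those of Mir379 and Mir758, and the closely similar 3p arms of Mir379 and Mir411. All are from the plus strand, with the seed in capitals.
mmu-miR-1193-5p (chr12:109715716-109715735): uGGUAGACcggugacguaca
mmu-miR-379-5p (chr12:109709065-109709085): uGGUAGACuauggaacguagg
mmu-miR-1197-5p (chr12:109712361-109712381): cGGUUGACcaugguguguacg
mmu-miR-758-5p (chr12:109712823-109712843): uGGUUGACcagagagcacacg
mmu-miR-379-3p (chr12:109709102-109709123): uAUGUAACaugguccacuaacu
mmu-miR-411-3p (chr12:109710225-109710246): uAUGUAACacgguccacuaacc

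Meg3 had the highest TPM of the 5 members in the gene table. Its RefSeq promoter window (GRCm38.p6, 250 bases before to 50 after the start, plus strand) is shown because it holds a motif not found in the other windows searched in this domain. The window was searched on both strands for TGACGTCA, the palindromic full cAMP response element, known as a binding site of CREB and ATF factors. The element was found once, beginning 57 bases before the start, and is in capitals.
Meg3 promoter (chr12:109540746-109541045): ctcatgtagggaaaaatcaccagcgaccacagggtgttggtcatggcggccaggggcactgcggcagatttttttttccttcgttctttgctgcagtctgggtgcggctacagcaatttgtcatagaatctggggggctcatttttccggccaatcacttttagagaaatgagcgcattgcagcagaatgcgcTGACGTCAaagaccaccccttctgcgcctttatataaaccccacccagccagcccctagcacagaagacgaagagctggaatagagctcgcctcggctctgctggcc
The same letters were in 588 of 32851 windows of this length (1.79%). They were not in the windows of Dlk1, Rian and Mirg or in a second Meg3 window that starts farther downstream. The Mirg window, from 109734731, lies inside the annotated gene, which begins at 109729764, so that beginning was not searched. No window of Rtl1 was searched. A match is a description of the letters and says nothing of a bound factor.

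Dlk1 (ENSMUSG00000040856.17) was among the most abundant protein-coding messages of the muscle. It encodes a transmembrane protein with epidermal growth factor-like repeats, related to the Notch ligands Delta and Jagged and known to restrain adipocyte differentiation. The gene lies on the plus strand of chromosome 12 at 109452823 to 109463336 (mm10). Replicate 1 held 67769 expected counts and 1653.82 TPM, and replicate 2 held 56199 counts and 1490.77 TPM. Its mean level was 1572.3 ± 115 TPM (SD, n = 2), rank 21 of 22015 protein-coding genes outside the mitochondrial genome. The nearest genes in mean level were Ttn, the giant sarcomere protein titin, with 1586.1 ± 23.6 TPM (SD, n = 2), and Eno3, the muscle enolase of glycolysis, with 1546.5 ± 143 TPM. These neighbours were chosen as the nearest in mean level, so their closeness to Dlk1 follows from the choice.

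Rtl1 (ENSMUSG00000085925.3) was much lower and differed in the other direction between the animals. It is derived from a retrotransposon of the sushi-ichi type and is known for roles in placenta and fetal muscle. The gene is the only one of the 5 on the minus strand, at 109589193 to 109600330. Replicate 1 held 5940 counts and 32.44 TPM, and replicate 2 held 7032 counts and 41.22 TPM. The mean was 36.83 ± 6.21 TPM (SD, n = 2), rank 1818 of 22015. In TPM Dlk1 was 42.8-fold higher than Rtl1, with log2 ratios of 5.42 ± 0.35 (SD, n = 2), whereas it was 9.55-fold higher in counts and 10.7-fold per kilobase of merged exons. In TPM, Dlk1 gave 97.7 ± 0.542% of the TPM of the coding pair.

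Meg3 (ENSMUSG00000021268.17, plus strand, 109541001 to 109571726) is a long noncoding RNA known as a growth-restraining transcript and a partner of Polycomb repressive complex 2. Its 117884 expected counts in replicate 1 gave 2870.55 TPM, and the 96827 in replicate 2 gave 2370.96 TPM. The mean of 2620.8 ± 353 TPM (SD, n = 2) ranked 5 of 13374 genes of the long noncoding classes. Its neighbours in level were Col1a1, a chain of type I collagen, with 2683.8 ± 61.7 TPM, and Malat1, a nuclear long noncoding RNA, with 2551.0 ± 7.06 TPM. Both lay within the 2 values of Meg3, and they too were chosen as the nearest in mean level.

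Rian (ENSMUSG00000097451.10, plus strand, 109603940 to 109661716) hosts snoRNA genes, annotated from 109631074 to 109658478. Of the members, Rian had the smallest relative spread between the libraries. It had 2175.44 and 2031.59 TPM, from 98325 and 88881 counts. The mean of 2103.5 ± 102 TPM (SD, n = 2) ranked 7 of 13374. Gapdh, the glycolytic enzyme often used as a reference gene, stood just above it with 2287.7 ± 270 TPM, and mt-Nd4l, a mitochondrial subunit of complex I, just below with 2100.0 ± 141 TPM.

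Mirg (ENSMUSG00000097391.8, plus strand, 109729764 to 109749460) hosts miRNAs at the far end of the domain and was the lowest noncoding member. Its 11169 counts in replicate 1 gave 247.26 TPM, and its 7513 counts in replicate 2 gave 191.41 TPM. The mean of 219.33 ± 39.5 TPM (SD, n = 2) ranked 8 of 13374, directly behind Rian among the long noncoding genes although Rian was 9.66-fold higher. The nearest genes in level were Col6a3, a chain of type VI collagen, with 220.29 ± 23.9 TPM, and Smpx, a small muscle protein, with 218.72 ± 30.0 TPM. Rtl1 in turn stood between Gm26945, a transcript inside Rian, with 36.84 ± 0.594 TPM, and B4galt1, a galactosyltransferase, with 36.815 ± 0.629 TPM.

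**Figure D1:**
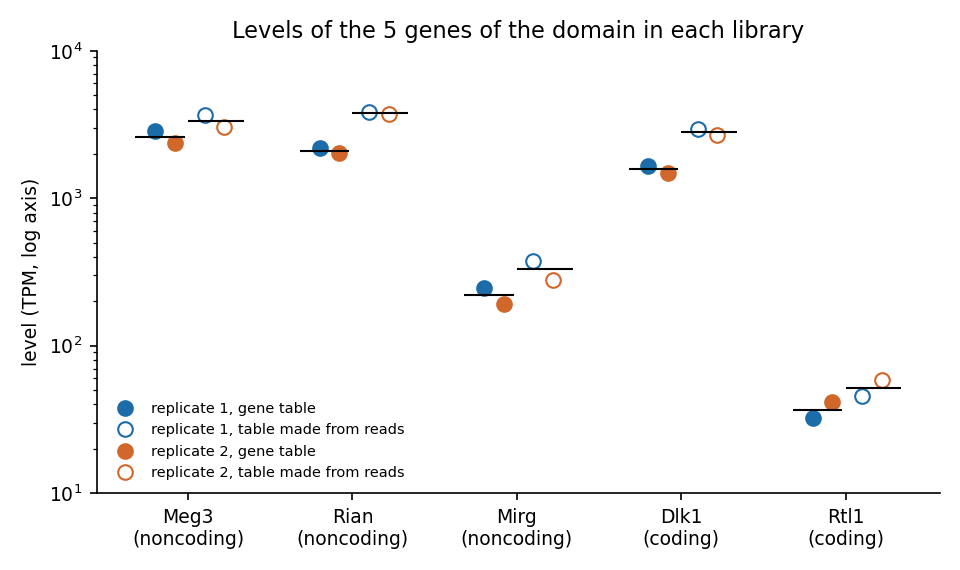
Level of each gene in each library (TPM, log axis); filled points are the alignment-based gene table, open points the table made directly from reads, and black lines the means of 2 libraries. Meg3, Rian and Dlk1 lie at or above 1490.77 TPM in both tables, with Mirg and Rtl1 below them in that order.

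The order of the mean levels was Meg3, Rian, Dlk1, Mirg and Rtl1, and no 2 neighbours in this order had overlapping values in the gene table. The gap between Meg3 and Rian was nevertheless small, with a log2 ratio of 0.31 ± 0.13 (SD, n = 2), and it turned to −0.17 ± 0.15 in the table made from reads. There Rian had 3768.0 ± 92.5 TPM and Meg3 3357.4 ± 419 TPM. The 5 genes together made up 6552.7 ± 604 TPM and 0.824 ± 0.042% of all counts in annotated genes. Of their summed TPM, Meg3 gave 39.9 ± 1.71%, Rian 32.2 ± 1.41%, Dlk1 24.0 ± 0.453%, Mirg 3.33 ± 0.296% and Rtl1 0.569 ± 0.147%. All 5 levels also depend on what else is in the total of a library. That total was also taken without spike-ins, mitochondrial genes, all genes under 200 nt, and Rn7s1, Rn7s2 and Rn7sk. Meg3 then had 5087.6 TPM, Rian 4084.0, Dlk1 3052.5, Mirg 425.77 and Rtl1 71.524 TPM, in the same order. The plot of levels by library shows the 3 abundant genes as a group, with Mirg and Rtl1 well below.

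The noncoding members exceeded the coding members in TPM in both libraries. Meg3, Rian and Mirg summed to 5293.2 and 4594.0 TPM, and Dlk1 and Rtl1 to 1686.3 and 1532.0 TPM. The ratio was 3.07-fold, with log2 values of 1.65 in replicate 1 and 1.58 in replicate 2 (1.62 ± 0.05, SD, n = 2). Single pairs varied widely around this value. Meg3 was 1.66-fold higher than Dlk1, with a log2 ratio of 0.73 ± 0.09, and Rian 1.34-fold higher, with 0.42 ± 0.04. Mirg lay below Dlk1, which was 7.21-fold higher, and the log2 ratio of Mirg over Dlk1 was −2.85 ± 0.16. Against Rtl1 all 3 noncoding members were higher in TPM, by 71.1-fold for Meg3, 57.3-fold for Rian and 5.94-fold for Mirg. Per kilobase of merged exons these ratios were 5.81-fold, 5.04-fold and 1.24-fold.

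The excess of the noncoding genes was kept in undivided counts but not per kilobase of merged exons. The TPM of a gene uses the lengths of the transcripts estimated to be in use. In the 2 libraries these averaged 1502.68 and 1597.36 nt for Meg3 and 1643.88 and 1704.16 nt for Rian. The lengths for Dlk1 were similar, 1499.63 and 1482.13 nt. The merged exons of all annotated transcripts, however, cover 18089 nt in Meg3 and 18234 nt in Rian, against 5657 nt in Dlk1. In undivided counts the noncoding sum was higher by a log2 ratio of 1.62 ± 0.01 (SD, n = 2). Per kilobase of merged exons the noncoding over coding ratio was 0.04 ± 0.02 in log2. On that scale Dlk1 had the highest value of the 5 genes in both libraries, 339.55 and 307.55 CPM (library-scaled counts) per kilobase. Meg3 had 184.71 and 165.71, Rian 152.84 and 150.91, Mirg 43.413 and 31.897, and Rtl1 26.48 and 34.24. The direction of Meg3 over Dlk1 therefore turned to −0.89 ± 0.01 and that of Rian over Dlk1 to −1.09 ± 0.09. Mirg over Rtl1 was 0.31 ± 0.58 with opposite signs in the 2 libraries. In the table made from reads the noncoding sum remained higher than the coding sum, by 2.60-fold.

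**Figure D2:**
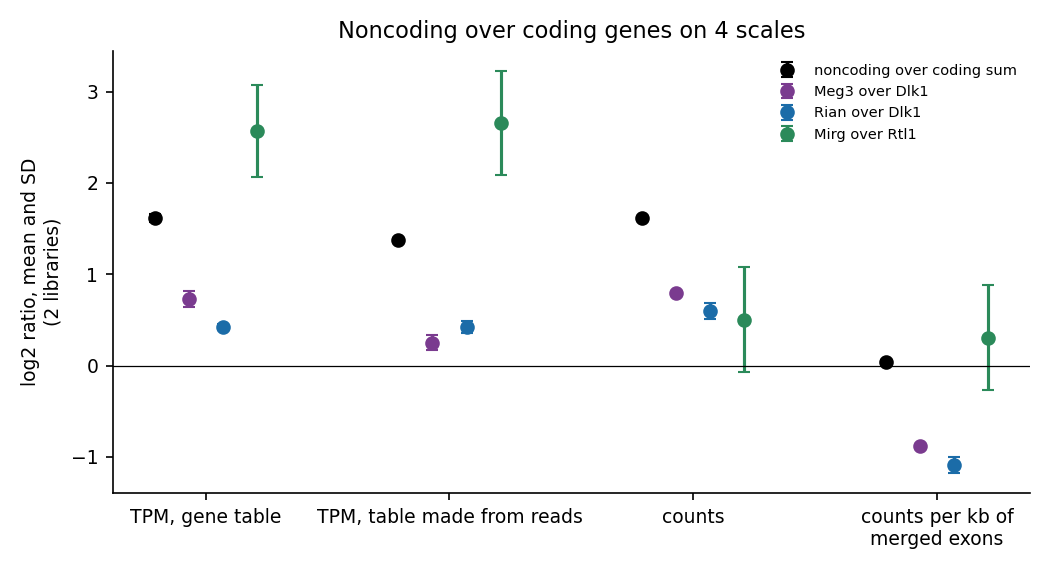
Log2 ratios of noncoding over coding genes on 4 scales (points, means of 2 libraries; bars, SD; where no bar shows, the SD is smaller than the point). The sum of the noncoding genes is above that of the coding genes in TPM and in counts, and nearly equal to it per kilobase of merged exons, where Meg3 and Rian fall below Dlk1.

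Transcript use shows which annotated transcripts those TPM rest on. The deposited IsoPct is the percentage of a gene's TPM given to each transcript, and the table made from reads gives a second estimate of the same share. Dlk1 has 10 annotated transcripts, of which 4 reached 5% of the gene in at least 1 library by either estimate. Dlk1-205, of 1703 nt with a reading frame of 385 codons, led with 57.79% and 57.16% in the 2 libraries, or 42.2 ± 0.0775% (SD, n = 2) in the table made from reads. Dlk1-203 and Dlk1-204 have shorter complete frames of 312 and 290 codons. Alternative splicing of Dlk1 is known to remove the stretch next to the membrane where the ectodomain is cut, so that shorter forms stay membrane-bound. Whether Dlk1-203 and Dlk1-204 lack that stretch was not read from protein sequence here.

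Dlk1-203 took 10.9 ± 1.43% by IsoPct and 23.7 ± 1.69% in the table made from reads. Dlk1-204 took 9.97 ± 1.88% and 7.80 ± 1.09%. Dlk1-209, a fragment of 483 nt whose frame of 121 codons is incomplete at its 5′ end, took 15.3 ± 0.799% and 17.2 ± 0.265%. The 385-codon form was thus the main complete form by both estimates, at 57.5 ± 0.445% and 45.7 ± 0.0849% when Dlk1-201, a transcript of 4653 nt with a frame of the same size, was added. Dlk1-201 itself was at 0 by IsoPct. Rtl1 has 1 annotated transcript of 6358 nt with 2 exons and 1744 codons, so its TPM does not depend on such a split.

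Meg3 was spread over many transcripts. Of 11 annotated, 9 reached 5% in at least 1 library by either estimate. Meg3-205 (1498 nt) had the highest mean, with 23.3 ± 0.834% by IsoPct and 26.2 ± 1.01% in the table made from reads. Meg3-211 (797 nt) had 22.0 ± 1.44% by IsoPct, above Meg3-205 in replicate 1 (22.97% against 22.71%), and 10.7% in the other table. For Meg3-203, of 457 nt, the estimates were furthest apart, with 20.4 ± 0.0141% by IsoPct and 0 in the table made from reads. Meg3-202 took 13.2 ± 1.10%, and Meg3-207 took 7.61%. Meg3-208 went the other way, with 0.95% by IsoPct and 16.1% in the table made from reads. Meg3-204 stood at 4.04% by IsoPct and 6.96% in the table made from reads, and Meg3-210 at 3.95% and 10.2%.

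The longest Meg3 transcript showed how the percentage of TPM and the percentage of counts part. Meg3-209, of 14548 nt, which reached 5% only in 1 library of the table made from reads (5.06%), took 4.21 ± 0.431% of the Meg3 TPM by IsoPct and yet 41.9 ± 2.37% of the Meg3 counts, 47443 of the counts in replicate 1 and 42210 in replicate 2. The other Meg3 transcripts named above are at most 1896 nt long. Coverage along the gene was not analysed here.

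Rian has 20 annotated transcripts, of which 6 reached 5%. Rian-202 (2355 nt) led with 34.7 ± 2.06% by IsoPct, 25.5 ± 1.04% in the table made from reads, and 49.6% of the counts. Rian-213 (1219 nt) had 24.0 ± 0.636% and 23.0%, the closest match of the 2 estimates among its leading transcripts. Rian-205 took 7.27% and 15.7%, Rian-206 5.58% and 0.0267%, and Rian-216 1.88% and 6.09%. Rian-207 was at 0 by IsoPct and at 11.0 ± 0.629% in the table made from reads.

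Mirg was divided among many transcripts, with 3 at similar shares. Of 12 annotated, 8 reached 5%. Mirg-203 (850 nt) had 21.2 ± 0.184% by IsoPct, Mirg-207 (694 nt) 18.76% in replicate 1 and 23.26% in replicate 2, and Mirg-201 (1906 nt) 17.2 ± 2.85%, and the last pair changed order between the libraries and the estimates. Mirg-208 (3187 nt) took 9.97% by IsoPct and 18.6% in the table made from reads. Mirg-206 took 8.29 ± 3.13%, Mirg-212 6.57%, Mirg-202 5.29 ± 2.80% and Mirg-204 5.08%. Mirg-202 was at 0 in the table made from reads.

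**Figure D3:**
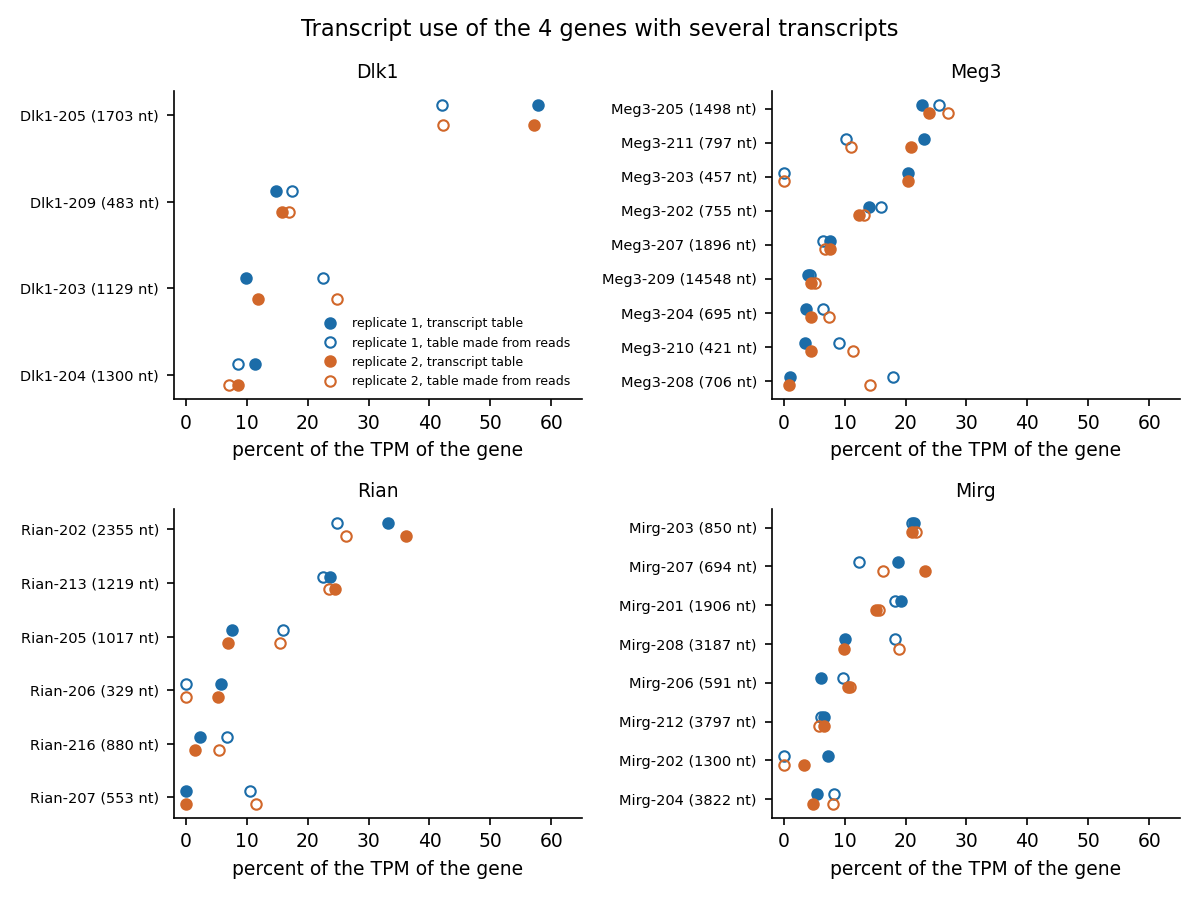
Share of each named transcript in the TPM of its gene (percent); filled points are IsoPct and open points the table made from reads, blue for replicate 1 and orange for replicate 2. Dlk1-205 leads Dlk1 in every estimate, while Meg3-203, Meg3-208, Rian-206, Rian-207 and Mirg-202 are at or near 0 in 1 of the estimates.

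The small RNA genes of the domain received almost no counts in these tables, and their length set what could be counted. Between the start of Dlk1 and the end of Mirg the annotation holds 104 genes, of which 66 are miRNA genes and 23 are snoRNA genes. The 58 miRNA genes and all 23 snoRNA genes of at most 99 nt had an effective length of 0 and were at 0 counts in both libraries. Across the whole genome none of the 2398 genes of at most 99 nt had a count. These zeros therefore say nothing of the level of the small RNAs. Of the 23 snoRNA genes, 13 lie within Rian and 10 outside the 5 members. Of the 66 miRNA genes, 15 lie within Mirg, 4 within Rian and 2 within Meg3. Another 7 overlap Rtl1, and 38 lie outside the 5 members.

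Of the 8 miRNA genes longer than 99 nt, 5 received counts. Mir433, whose hairpin lies on the plus strand opposite a coding exon of Rtl1, had 203 counts in replicate 1 and 151 in replicate 2. On its effective length of 25 nt these few counts amount to 277.55 and 221.61 TPM, so the TPM of so short an entry is not comparable with that of the long genes. Mir1188, in an intron of Rian, had 26 and 19 counts, Mir1197 had 15 and 18, and Gm27379 had 7 and 9. Mir1193 had 8 counts in replicate 1 and 0 in replicate 2, where up to 3 counts cannot be told from 0. The table made from reads gave 0 for all 66 miRNA genes. Whether the counts stem from the hairpin or from a longer host transcript was not tested.

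The long noncoding entries inside Rian and between Rian and Mirg lie on the same plus strand and had lower levels. Gm37899 had 37.64 and 30.32 TPM, from 9490 and 7123 counts, and B830012L14Rik had 28.56 and 20.55 TPM, from 3682 and 2468 counts. Gm26945, inside an intron of Rian, had 37.26 and 36.42 TPM. None of the 3 shares exon bases with Rian. On the minus strand, Gm34081 between Dlk1 and Meg3 had 5.21 and 4.04 TPM. Gm26906, whose 1228 exon bases all lie within Meg3 exons on the opposite strand, had 2 and 0 counts beside the 117884 and 96827 of Meg3, although the use of strand in counting is not given in the sources used here.

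**Figure D4:**
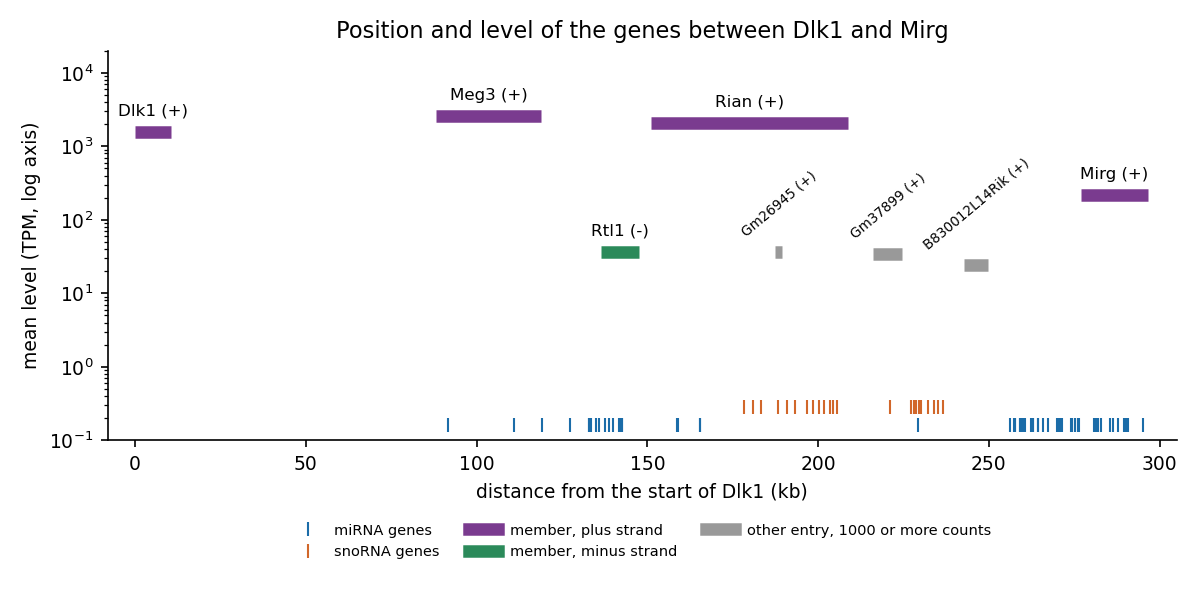
Position of the genes as distance from the start of Dlk1 (kb) and mean level over 2 libraries (TPM, log axis); bars span each gene, and ticks near the bottom mark annotated miRNA and snoRNA genes, whose height there carries no value. Meg3 begins 88.2 kb and Mirg 276.9 kb from the start of Dlk1, and Rtl1 is the member on the minus strand.

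Levels were far lower at the edges of the domain than in Dlk1, Meg3 and Rian. Dio3, the thyroid hormone deiodinase at the far end, begins 529.6 kb after the end of Mirg and had 1 and 3 counts (0.03 and 0.08 TPM), neither of which is above the 3 counts that cannot be told from 0. On the other side of Dlk1, Begain, a synaptic protein gene, had 2.52 and 3.32 TPM and Wdr25 had 2.35 and 2.32 TPM. The mean level of Dlk1 was 538-fold that of Begain and 673-fold that of Wdr25, whereas Rtl1 exceeded them by 12.6-fold and 15.8-fold. Of 11 listed genes flanking the imprinted core, 9 were above 1 TPM in both libraries, with a median level of 4.08 ± 0.311 TPM (SD, n = 2). The highest were Dync1h1, a heavy chain of cytoplasmic dynein, with 44.5 ± 4.40 TPM, Ppp2r5c, a phosphatase subunit, with 36.9 ± 1.73 TPM, and Evl, an actin regulator, with 34.4 ± 2.04 TPM. Degs2 had 0.05 and 0.51 TPM. Even Dync1h1, the highest of the flanking genes, lay near Rtl1 and far below Dlk1, Meg3 and Rian.

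Between the 2 animals Rtl1 was higher and Mirg lower in replicate 2, while Dlk1, Meg3 and Rian differed by less. Expected counts were scaled by trimmed mean of M-values (TMM), and a ratio of replicate 2 over replicate 1 carries a 95% exact counting interval, which covers counting error only. None of the 5 members passed a 1.5-fold difference, a rule passed by 12.6% of the 17998 genes whose mean count was at least 10 (9.16% higher and 3.44% lower in replicate 2). Among the 4854 genes whose mean count was at least 1000, like all 5 members, 1.40% passed. The log2 ratio of Dlk1 was −0.19 (interval −0.20 to −0.17) and that of Meg3 −0.20 (−0.21 to −0.19), so both were slightly lower in replicate 2. Rian was at −0.06 (−0.08 to −0.05), and at 0.02 when libraries were scaled by the spike-in RNAs. Rtl1 was the member that was higher in replicate 2, with a log2 ratio of 0.33 (0.28 to 0.38). Mirg was at −0.49 (−0.53 to −0.45), which is 1.40-fold lower in replicate 2 and the largest difference of the 5.

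Rtl1 and Mirg lay outside −0.28 to 0.25 in log2, the 5th to 95th percentile of the 4854 highly counted genes, while Dlk1, Meg3 and Rian lay inside it. With DESeq2 size factors Rtl1 was at 0.30 and Mirg at −0.51, and another scaling shifts every gene by the same amount, so their place against the other genes is kept. Along the plus strand the ratio differed between the upstream and the downstream part of the noncoding stretch. Gm26945 was at −0.05, Gm37899 at −0.33 (−0.38 to −0.29) and B830012L14Rik at −0.49 (−0.57 to −0.42), the same as Mirg, which follows it. The 3 entries from Gm37899 to Mirg thus all lay below the range, and the plus-strand members upstream of them lay inside it. The short miRNA entries, with far fewer counts, had wide intervals: Mir433 was at −0.34 (−0.66 to −0.03), Mir1188 at −0.36 (−1.30 to 0.54), Mir1197 at 0.34 (−0.73 to 1.44) and Gm27379 at 0.42 (−1.15 to 2.11). This ordering was noticed after the values were seen, and with 1 animal on each side it has no replicate check.

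**Figure D5:**
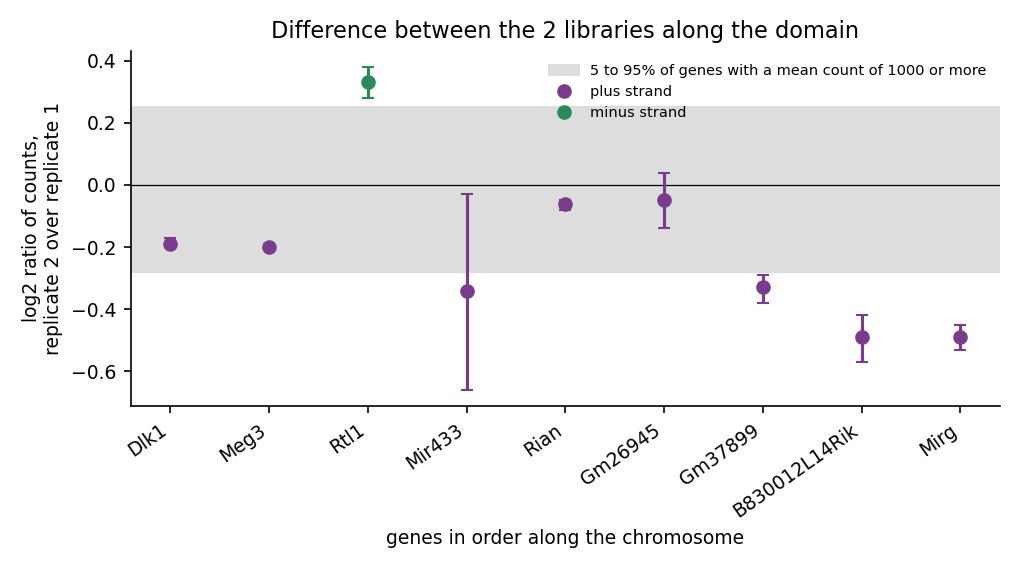
Log2 ratio of scaled counts, replicate 2 over replicate 1, with 95% counting intervals, for the genes of the domain with at least 300 counts in all, in order along the chromosome. The grey band spans the 5th to 95th percentile of the genes whose mean count was at least 1000 (−0.28 to 0.25); Rtl1 lies above it, and Gm37899, B830012L14Rik and Mirg below it, and Mir433, at −0.34, is also below it with an interval (−0.66 to −0.03) that crosses its lower edge.

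Markers of other cell types differed between the libraries beside Rtl1 and Mirg. By the 1.5-fold rule all 4 keratinocyte, all 4 adipocyte and 3 of 4 Schwann cell markers were higher in replicate 2, while Sox10 had a log2 ratio of 0.30. Of all genes with a mean count of at least 10, 9.16% were higher and 3.44% lower by this rule. Among 4 satellite cell markers, which summed to 70.7 and 57.8 TPM, Myod1, the master regulator of muscle identity, was lower, at 31.2 and 19.1 TPM, and the other 3 passed in neither direction. The part of these cell types in the differences of Rtl1 and Mirg was not tested.

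Dlk1 stood far above the genes of the Notch axis with which its protein is related. Of 13 listed receptors, ligands, targets and the Dlk1-cleaving protease Adam17, 12 were above 1 TPM in both libraries, with a median level of 11.3 ± 0.276 TPM (SD, n = 2) against 1572.3 TPM for Dlk1. The highest were the receptors Notch2 with 28.1 ± 3.09 TPM and Notch3 with 27.3 ± 1.17 TPM and the ligand Jag2 with 23.0 ± 2.31 TPM. Dlk2, the paralog of Dlk1, had 0.49 and 0.86 TPM from 22 and 32 counts. At so few counts the counting error is wide, and Gm34081, with 90 and 65 counts, had an interval of −0.87 to 0.09. Dlk2 was the single gene of these 13 past 1.5-fold, higher in replicate 2. Of all genes with a mean count of at least 10, 9.16% passed in that direction and 12.6% in either. The median log2 ratio of the list was −0.09, beside 0.006 over all 17998 genes.

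Rtl1 was not the highest of the retrotransposon-derived family. Of 11 listed relatives 9 were above 1 TPM in both libraries, with a median of 3.49 ± 0.233 TPM (SD, n = 2). Peg10, an imprinted gene needed in the placenta, had 56.8 ± 1.86 TPM, Rtl8b 49.1 ± 1.03 TPM and Rtl8a 48.7 ± 3.23 TPM, all above the 36.83 ± 6.21 TPM of Rtl1. The Rtl8 genes are near-identical copies, so the split of reads among them is uncertain. Rtl4 had 0.13 and 0.33 TPM from 13 and 32 counts. It was the single gene past 1.5-fold among the 10 relatives with a mean count of at least 10. It was higher in replicate 2, a direction in which 9.16% of all such genes passed. Ldoc1 was at 0 counts in either library, where up to 3 counts cannot be told from 0. The median log2 ratio of the relatives was 0.10, below the 0.33 of Rtl1.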

How the data were processed

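Total RNA was measured in 2 libraries of 1 group, labelled as separate animals. Reads were mapped to mm10 with GENCODE M21 annotation, per the submitters' processing notes. The authors deposited estimated counts (expected counts) and TPM per gene and transcript from alignments, the percent of a gene given to each transcript (IsoPct), and a second table of estimated counts and TPM made from reads. How strand was used is not given in the sources used here. Means and SDs over the 2 libraries were computed from the gene table, and ratios from log2(TPM + 0.1). Expected counts, rounded to whole numbers, were scaled with edgeR 4.0.16 (TMM) with DESeq2 1.42.0 size factors, total counts and spike-ins as alternatives, and the interval was checked on simulated data. The ERCC spike-in entries (230974 and 206356 counts) were left out of totals. miRNA and promoter sequences are RefSeq's. The named genes are the 5 members, their transcripts at 5% or more of the gene, the genes next to each member in level (200 nt or longer), the 5 small RNA genes with the highest counts, and of each list the 3 highest and those under 1 TPM in both libraries. Begain, Wdr25, Myod1 and the long entries between the members were named after their values were seen. The members and lists were chosen with earlier results of these data known.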

Additional observations from a re-analysis of the deposited data

How the results depend on the processing

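No paired analysis was possible because there is only 1 group. Of the main set of alternative settings, leaving a library out not counted, 38 values stayed, 38 moved and 2 reversed. Of those added after seeing the data, 1 stayed, 14 moved and 2 reversed. Levels, ratios and shares stayed if within the spread between the libraries or the counting interval. The numbers of genes past 1.5-fold have neither, and those set down as staying ran from 2148 to 2412, beside 2268. Mean TPM in the table made from reads was 2812.9 for Dlk1, 51.99 for Rtl1, 3357.4 for Meg3, 3768.0 for Rian and 329.27 for Mirg. Without spike-ins, mitochondrial genes, genes under 200 nt, Rn7s1, Rn7s2 and Rn7sk it was 3052.5, 71.524, 5087.6, 4084.0 and 425.77 in that order. In CPM per kilobase of merged exons the levels were 323.55, 30.36, 175.21, 151.87 and 37.655. Leaving out 1 of 2 libraries gives the value of the other, which is always within 1 SD of the mean and so says nothing of stability. The TPM then ran from 1490.77 to 1653.82 for Dlk1, 32.44 to 41.22 for Rtl1, 2370.96 to 2870.55 for Meg3, 2031.59 to 2175.44 for Rian and 191.41 to 247.26 for Mirg, and the log2 noncoding over coding ratio from 1.58 to 1.65.

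That ratio was 1.38 in the table made from reads and 0.04 per kilobase of merged exons. There Meg3 over Dlk1 reversed to −0.89 and Rian over Dlk1 to −1.09, by the construction of the longer merged length. Meg3 over Rian reversed to −0.17 in the table made from reads; the cause was not tested. Dlk1-205 took 42.2% of its gene in that table, Meg3-205 26.2%, Rian-202 25.5% and Mirg-203 21.4%, and in single libraries 57.16 to 57.79%, 22.71 to 23.89%, 33.22 to 36.13% and 21.1 to 21.36% by IsoPct. Meg3-211 (22.97%) was above Meg3-205 in replicate 1 and Mirg-207 (23.26%) above Mirg-203 in replicate 2.

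Between the libraries, DESeq2 size factors gave log2 ratios of −0.21 for Dlk1, −0.23 for Meg3 and −0.09 for Rian. Total counts gave −0.14, −0.16 and −0.02, and −0.44 for Mirg. Spike-in scaling gave −0.11 for Dlk1, −0.12 for Meg3, 0.41 for Rtl1 and −0.41 for Mirg, and reversed Rian to 0.02. These scalings put the median log2 ratio of all genes at −0.02, 0.05 and 0.09, against 0.01 with TMM. Of all genes, 2268 passed 1.5-fold, 9624 with no filter on counts, 495 with a mean count of 100 or more and 68 with 1000 or more. Counting depth did not limit the members, since the intervals span at most 0.10 in log2; the number of animals did.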

Other observations

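Genes that keep imprints were present in this muscle at modest levels beside the domain they are known to control elsewhere. Of 8 listed genes, 7 were above 1 TPM in both libraries, with a median of 14.2 ± 0.202 TPM (SD, n = 2). Trim28, a co-repressor recruited by zinc finger proteins, had 99.6 ± 4.53 TPM, the DNA methyltransferase Dnmt3a 61.6 ± 10.1 TPM and the insulator protein gene Ctcf 23.3 ± 0.148 TPM. Dnmt3l, a methylation cofactor of germ cells, was at 0 counts in each library. All 6 listed genes of Polycomb repressive complex 2, the complex that Meg3 is known to bind, were above 1 TPM, led by Rbbp4 with 69.2 ± 2.26 TPM, Jarid2 with 20.5 ± 0.12 TPM and Suz12 with 18.8 ± 0.757 TPM. The median of these 6 was 19.1 ± 0.113 TPM.

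The listed protein genes that process miRNAs and snoRNAs were all expressed, although the small RNAs of the domain themselves could not be counted. All 7 listed miRNA maturation genes were above 1 TPM, with a median of 22.3 ± 1.13 TPM (SD, n = 2). Ago2, which binds mature miRNAs, had 75.2 ± 0.764 TPM. Dicer1, which cuts the precursor, had 26.9 ± 0.403 TPM, and Tarbp2 had 23.6 ± 0.509 TPM. The genes of all 4 core proteins of C/D box snoRNA particles were expressed as well. Nop58 had 40.2 ± 1.51 TPM, Nop56 33.0 ± 2.11 TPM and the methyltransferase gene Fbl 27.0 ± 0.841 TPM. The median of these 4 genes was 30.0 ± 0.636 TPM.

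Of 13 imprinted genes outside the domain that are often co-expressed with Dlk1, all were above 1 TPM, with a median of 306 ± 2.97 TPM (SD, n = 2). H19 with 8035 ± 571 TPM and Igf2 with 5050 ± 365 TPM lay above Meg3, and Gnas with 1308 ± 6.76 TPM lay just below Dlk1. None of the genes of these 5 lists passed 1.5-fold between the libraries, beside 12.6% of all genes with a mean count of at least 10. Most of the listed genes had a mean count of at least 1000, where only 1.40% of all genes passed. The absence of passing genes is therefore near the share over all such genes. The list medians of the log2 ratio ran from −0.12 to 0.02.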
